A study of Homo sapiens with 12 samples.

Results

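The response of HCC70 cells to XY018, an antagonist of the nuclear receptor RORγ, and atorvastatin (ATV) given together was set against the response to each compound alone, gene by gene. Genes were kept when they reached 1 FPKM (fragments scaled to the length of the transcript and the depth of the library) in at least 1 of 4 libraries, which left 11944 of the 16491 genes listed for this line. The 4 libraries, of 12 in the whole series, came from HCC70 treated for 24 h with vehicle, with XY018 at 1.25 μM, with ATV at 1.25 μM, or with XY018 and ATV at 1.25 μM each. HCC70 is an established line of triple-negative breast cancer (TNBC), used at passages 6 to 9 and grown in RPMI with 10% FBS, and each condition had 1 library. For every gene 3 log2 values were computed after adding 0.1 to each FPKM: the combined treatment minus ATV alone, the combined treatment minus XY018 alone, and the excess, which is the log2 ratio of the combined treatment to vehicle minus the sum of the log2 ratios of the single treatments to vehicle. The excess equals the change on adding ATV in the presence of XY018 minus the change on adding ATV in its absence. Differences of at least 1.5-fold were counted. Since every condition had 1 library, no test was run and no difference could be set against the spread between cultures. The 3 values share libraries, so a gene that is low in the combined library is low in all of them.

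Cholesterol is made from acetyl-CoA through mevalonate by a chain of enzymes whose genes are switched on together by the transcription factor SREBP2 when sterols run low. Statins such as ATV block an early, rate-limiting step, and cells answer by raising the genes of the pathway. The same pathway supplies the farnesyl and geranylgeranyl groups that anchor small GTPases to membranes, and the oxysterols that activate the liver X receptors (LXR). The comparison asks whether the combined treatment differed from either compound and from the sum of both.

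The depth of the libraries was estimated from the spacing of low FPKM values at 9230000 to 10160000 fragments in HCC70 and 19580000 to 20350000 in MDA-MB468, another TNBC line given the same treatments, whose values are given beside those of HCC70. Counting intervals at the 95% level are given in brackets after a log2 value and cover counting error only. The line matched its label for 6 of 6 markers, EPCAM, CDH1, KRT5, KRT17, KRT18 and EGFR, which lay between 45.4 and 660 FPKM. Of these EPCAM, CDH1 and KRT18 mark epithelium and are not particular to its basal type. ESR1, the oestrogen receptor, was at 0.44 to 0.64 FPKM, while ERBB2 was at 25.5 to 28.8 FPKM and PGR was not among the genes listed. Of 7 markers of blood, stromal and endothelial cells 5 were listed, and 3 of them reached 1 FPKM, the highest being COL1A1 at 3.87 to 5.73 FPKM. CDH5, an endothelial cadherin, was at 0.25 FPKM with vehicle, 0.17 with ATV, 1.64 with XY018 and 2.28 with both, and the summed level of the 5 markers was 6.02, 7.11, 6.85 and 8.64 FPKM in that order. The part of such cells in the results was not tested.

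The combined treatment was lower than ATV alone for 323 genes (2.7% of 11944) and higher for 335 (2.8%). It was lower than XY018 alone for 252 genes (2.11%) and higher for 459 (3.84%). The excess lay at least 1.5-fold below 0 for 343 genes (2.87%) and above 0 for 398 (3.33%). Lower than both single treatments were 102 genes (0.854%), and higher than both were 93 (0.779%). These shares over all genes are the background for the counts of called genes in the gene lists below. Most of the called genes were weakly expressed. The median of the highest FPKM over the 4 libraries was 2.2 for genes below the sum and 2.49 for genes above it, against 11.8 for all genes, and the counting interval lay past 0 for 158 of the 343 and 196 of the 398. The medians over all genes were −0.01 against ATV, −0.0046 against XY018 and −0.00029 for the excess. FPKM is scaled to the depth of each library, so medians near 0 cannot show whether total RNA differed.

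In the 21 genes of cholesterol biosynthesis, ATV given alone lay above vehicle for 20, whereas ATV added to XY018 lay below XY018 alone for 17. These counts are by sign only. The median of ATV alone against vehicle was 0.26, and 3 genes were higher by 1.5-fold. The median of the list was −1.496 for the combined treatment against ATV alone, with 18 genes lower by 1.5-fold, against 2.7% of all genes. Against XY018 alone it was −0.18, with 0 genes past 1.5-fold in either direction and values from −0.44 for EBP, a sterol isomerase, to 0.31 for TM7SF2. Counting error did not reach 0 for 9 genes with negative values and for TM7SF2. The TM7SF2 transcript, however, has a GC content of 62.4%. In the highest GC group described below the median against XY018 alone was 0.20, which lies within the interval of TM7SF2 (0.03 to 0.59). The median excess was −0.40, 20 of 21 values were negative, 5 genes were below the sum by 1.5-fold and the counting interval lay below 0 for 18 genes. No gene of the list was lower than both single treatments by 1.5-fold, although 17 had their lowest FPKM of the 4 libraries in the combined one. The share of all genes with an interval past 0, or lowest in the combined library, was not counted. The excess is the difference that ATV made with XY018 minus the one it made without, and these parts differed between genes. LSS was 0.70 higher with ATV than with vehicle and 0.14 lower with both than with XY018, whereas EBP was 0.04 and 0.44 lower in these comparisons.

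HSD17B7, a sterol reductase that has processed pseudogenes, was at 14.3 FPKM with vehicle, 21.5 with ATV, 9.93 with XY018 and 8 with both, an excess of −0.90 (−1.33 to −0.46). LSS, which closes the sterol rings, was at 27.0, 43.95, 9.18 and 8.31 FPKM in the same order, an excess of −0.84 (−1.06 to −0.62). MVK, mevalonate kinase, was at 8.65, 12.5, 4.25 and 3.53 FPKM, an excess of −0.79 (−1.25 to −0.33). In each of these genes the ATV library was the highest and the combined library the lowest. Against XY018 alone, however, the interval spanned 0 in each. The values were −0.31 (−0.67 to 0.06) for HSD17B7, −0.14 (−0.35 to 0.06) for LSS and −0.26 (−0.68 to 0.13) for MVK. HMGCS1, which makes HMG-CoA, had an excess of −0.78 (−1.06 to −0.50), with 16.1, 20.4, 5.79 and 4.25 FPKM. SQLE, squalene epoxidase, was at 80.1, 105, 18.0 and 15.3 FPKM, an excess of −0.62 (−0.82 to −0.42). Another 2 genes stood apart from the list: PMVK, phosphomevalonate kinase, with 25.04, 27.1, 21.0 and 25.03 FPKM, and GGPS1, which makes geranylgeranyl diphosphate, with 17.8, 19.1, 16.5 and 16.3 FPKM. PMVK and GGPS1 were among the members not lower than ATV alone by 1.5-fold, and their excess values were 0.14 (−0.24 to 0.51) and −0.13 (−0.39 to 0.12). The log scale bears on the size of the excess, since adding the single changes as FPKM in place of log2 ratios gave a median of −0.70.

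**Figure D1:**
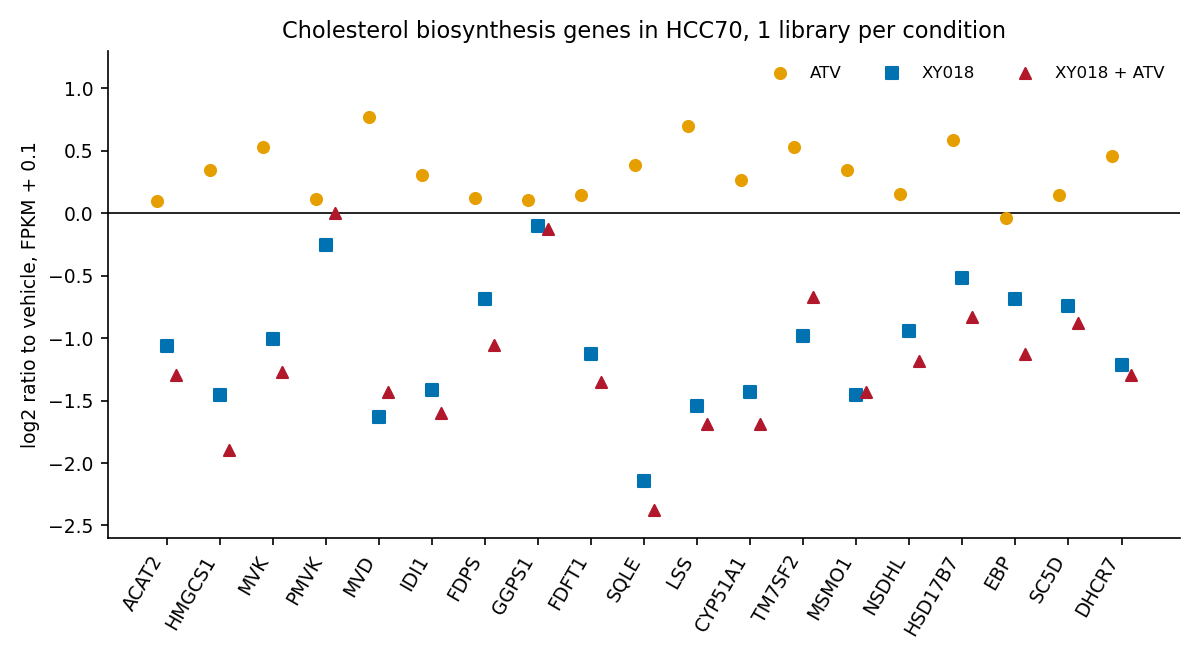
Log2 ratio to vehicle (FPKM with 0.1 added) of 19 of the 21 cholesterol biosynthesis genes in HCC70 for ATV (circles), XY018 (squares) and both (triangles), 1 library each, from acetyl-CoA at the left to cholesterol at the right. ATV lies above 0 for 18 of these genes, and the combined treatment lies near XY018 and away from ATV for all but PMVK and GGPS1, where the 3 values lie close together.

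Promoter sequences are shown for genes that turn on this pattern, since SREBP2 acts together with the factor NF-Y, which binds the CCAAT box. The sequences are from RefSeq (GRCh38.p14), and windows from 250 bases before to 50 bases after the start were searched on both strands for CCAAT, for the sterol regulatory element core TCACNCCAC, for the sequence AGGTCA that ROR receptors bind and for the E-box CACGTG. Of the 16 cholesterol genes with a window, 14 (87.5%) held CCAAT, against 43.6% of 9794 HCC70 genes with one. Lists with 0 called genes held it as often, with 16 of 16 endoplasmic reticulum chaperones (100%) and 16 of 17 mitosis genes (94.1%), so the box is not particular to the cholesterol genes. The sterol regulatory element core was in 0 of the 16 windows and 1.51% of all, AGGTCA in 1 (6.25%) and 13.7% of all, and CACGTG in 2 (12.5%) and 12.7% of all. A match describes these letters in these windows and shows no binding, and 5 genes of the list had no window here. Nor does the lack of a match show the lack of a site, since only exact letters in short windows were searched. The paper's reporter promoters of MVK and HMGCS1 reached farther upstream, and the putative RORγ sites it mutated there do not hold AGGTCA. Capitals mark the match, which is ATTGG where CCAAT lies on the other strand, and TCACCCCAC in SREBF2, the gene of SREBP2 itself. RHOB, described below, is shown for comparison.
HMGCS1 (chr5:43313538-43313592, minus strand): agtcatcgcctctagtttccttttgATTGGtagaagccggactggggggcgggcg
LSS (chr21:46228895-46228949, minus strand): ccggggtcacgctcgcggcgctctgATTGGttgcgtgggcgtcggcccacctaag
MVK (chr12:109573612-109573666, plus strand): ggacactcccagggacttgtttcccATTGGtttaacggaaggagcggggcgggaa
INSIG1 (chr7:155297683-155297737, plus strand): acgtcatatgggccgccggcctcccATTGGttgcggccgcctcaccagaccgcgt
SREBF2 (chr22:41832947-41833005, plus strand): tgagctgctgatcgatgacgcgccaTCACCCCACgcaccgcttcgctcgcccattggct
RHOB (chr2:20446934-20446988, plus strand): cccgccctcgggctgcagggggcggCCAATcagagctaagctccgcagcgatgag

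Among the genes that control SREBP and sterol uptake, INSIG1, a known target of SREBP2, had the same order of libraries as most of the enzymes. Of 13 genes listed 12 were expressed, 4 were lower than ATV alone (2.7% of all genes) and 1 was higher (2.8%). From XY018 alone 0 differed by 1.5-fold, and 2 were below the sum (2.87% of all genes). INSIG1, which retains SREBP in the endoplasmic reticulum, was at 32.3 FPKM with vehicle, 44.8 with ATV, 11.4 with XY018 and 9.75 with both, an excess of −0.70 (−0.96 to −0.43). The gene was highest with ATV, and the combined library lay within 1.5-fold of the XY018 library. STARD4, a sterol carrier, was lower than ATV alone at about 21 fragments in the combined library, with an excess of −0.04 (−1.08 to 1.00). SREBF1, the gene of SREBP1 and an LXR target, went the other way, with 37.4, 41.9, 64.9 and 87.6 FPKM. It was highest with both compounds, 1.06 (0.99 to 1.14) above ATV alone and 0.43 (0.37 to 0.50) above XY018 alone. The SREBF1 transcript has a GC content of 63.2%, and in the highest GC group described below the median against XY018 alone was 0.20. SREBF2 was at 137, 162, 106 and 119 FPKM, an excess of −0.07. The genes SCAP, INSIG2, MBTPS1, MBTPS2, NPC1 and LPIN1 were called in none of the contrasts, and NPC1L1 was below 1 FPKM throughout.

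Of 15 expressed genes of fatty acid synthesis, 4 were lower than ATV alone (2.7% of all genes) and 1 was higher (2.8%). From XY018 alone 0 differed, and 2 were below the sum (2.87% of all genes). FADS2, a fatty acid desaturase, was at 54.0 FPKM with vehicle, 93.0 with ATV, 23.4 with XY018 and 25.3 with both, an excess of −0.67 (−0.84 to −0.50). This is the order seen in the cholesterol enzymes, with ATV highest and the combined library beside XY018. FASN, fatty acid synthase, was at 79.2, 113, 48.7 and 54.2 FPKM, an excess of −0.35 (−0.43 to −0.28). FASN and the other members of gene lists given without a rule of their own in this and the next paragraphs, among them ACTB, TPM1, NUPR1, CXCL1 and HBEGF, were picked after their values had been seen.

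The LXR targets ABCA1, ABCG1 and MYLIP were close to XY018 alone in the combined library, as the cholesterol genes were, but above vehicle. Of 11 genes of the list 7 were expressed, and 3 of these were higher than ATV alone, against 2.8% of all genes. From XY018 alone 0 differed by 1.5-fold, and the median excess was 0.17. ABCA1, which exports cholesterol to lipid-poor apolipoproteins, was at 2.22 FPKM with vehicle, 1.65 with ATV, 24.3 with XY018 and 27.0 with both. ABCG1, another sterol exporter, was at 1.34, 1.26, 22.6 and 24.9 FPKM, and MYLIP, a ubiquitin ligase, was at 8.36, 5.81, 12.5 and 13.6 FPKM. The value was lower with ATV than with vehicle and highest with both compounds in each of these genes. For ABCG1, however, vehicle and ATV rest on about 39 and 38 fragments, which are near equal. Against XY018 alone the interval spanned 0 for ABCG1 (−0.02 to 0.29) and MYLIP (−0.08 to 0.33). The excess was 0.56 (0.26 to 0.85) for ABCA1, 0.22 (−0.44 to 0.88) for ABCG1 and 0.64 (0.30 to 0.99) for MYLIP, of which only that of MYLIP passed 1.5-fold. For ABCA1 adding the single changes as FPKM gave 0.19 in place of 0.56. The receptors themselves, NR1H2 (59.0 FPKM with both) and NR1H3 (9.63 FPKM), and the targets LPCAT3 and SMPDL3A were not called. SMPDL3A, at 0.96, 1.23, 0.95 and 1.1 FPKM, lay near vehicle with XY018. APOE and ABCG4 were below 1 FPKM in all 4 libraries, and ABCG5 and ABCG8 were not among the genes listed. In MDA-MB468 2 of 6 expressed genes of the list were lower with both compounds than with XY018 alone (1.99% of all genes). These were ABCG1 (4.21 FPKM with XY018 and 2.34 with both, −0.82) and MYLIP (9.6 and 5.82 FPKM, −0.71). ABCA1 was below 1 FPKM throughout in that line.

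The prenylation list, of prenyl transferases, small GTPases and Krüppel-like factors that respond when prenylation is blocked, had medians near 0 (−0.04 against ATV, −0.05 against XY018 and 0.02 for the excess), but held some of the largest departures. Of 25 genes, 4 were higher than ATV alone (2.8% of all genes) and 3 higher than XY018 alone (3.84%). RHOB, a small GTPase known to be induced by statins, was at 1.15 FPKM with vehicle, 3.58 with ATV, 1.13 with XY018 and 6.89 with both, which corresponds to about 26, 85, 24 and 161 fragments. XY018 alone stood at the vehicle level, and the combined library exceeded ATV alone by 0.93 (0.55 to 1.33) and XY018 alone by 2.51 (2 to 3.31). KLF2, a transcription factor also known to be induced by statins, was at 0.37, 0.83, 0.36 and 2.50 FPKM, or about 10, 23, 9 and 70 fragments. It showed the same order as RHOB, with differences of 1.48 (0.93 to 2.37) from ATV alone and 2.50 (1.83 to 4.03) from XY018 alone. With a pseudocount of 1 these were 0.94 and 1.36 for KLF2, and RHOB lay 0.78 and 1.89 above the single treatments. The excess was 0.95 (0.07 to 1.82) for RHOB and 1.51 (0.09 to 2.94) for KLF2, and the lower bounds lie close to 0 because so few fragments stand behind the vehicle and XY018 values. THBD, thrombomodulin, was at 1.32, 1.60, 1.57 and 2.59 FPKM, 0.66 (0.23 to 1.17) above ATV alone and 0.69 (0.24 to 1.21) above XY018 alone, which became 0.47 and 0.48, under 1.5-fold, with a pseudocount of 1. KLF4 was higher than ATV alone by 0.68 (0.51 to 0.87), with 21.8 FPKM in the combined library against 13.5. RND3, another small GTPase, was lower than XY018 alone, with 20.4 against 30.6 FPKM. FNTB, a subunit of farnesyltransferase, was listed at 5.22, 7.04, 7.92 and 5.11 FPKM, an excess of −1.05, but shares exons with the readthrough gene CHURC1-FNTB, and the sum of both entries gave 10.5, 11.2, 10.1 and 8.45 FPKM and an excess of −0.35.

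**Figure D2:**
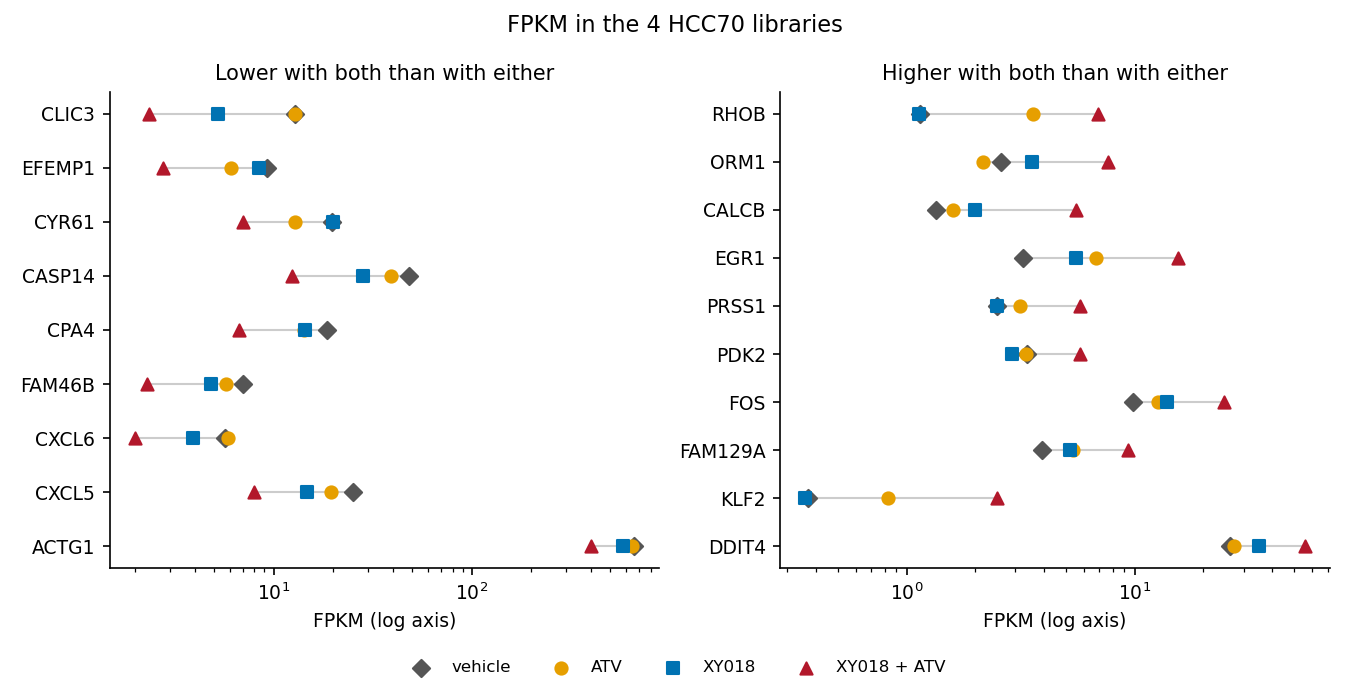
FPKM (log axis) in the 4 HCC70 libraries of the genes farthest below (left) or above (right) both single treatments, with ACTG1, KLF2 and DDIT4 added. The combined library (triangles) is the lowest value in every row at the left and the highest in every row at the right, which is how the rows were chosen except for the 3 added genes, and for RHOB and KLF2 the XY018 library coincides with vehicle.

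Genes with lower values in the combined library than in either single treatment are described first. CASP14, a caspase of keratinizing epithelium, was at 48.3 FPKM with vehicle, 39.2 with ATV, 28.2 with XY018 and 12.4 with both, and lay 1.65 (1.49 to 1.82) below ATV alone and 1.18 (1.01 to 1.36) below XY018 alone on the log2 scale. CYR61, a matrix protein and target of YAP, was at 19.8, 12.8, 19.9 and 6.99 FPKM, an excess of −0.88 (−1.22 to −0.54). EFEMP1, a matrix glycoprotein, was at 9.29, 6.12, 8.42 and 2.77 FPKM, an excess of −0.98 (−1.45 to −0.50). In CYR61 and EFEMP1 the XY018 library lay near vehicle and the ATV library below it, and the difference made by ATV was larger with XY018 present. TGFB2, CAV1, the structural protein of caveolae, and P3H2, a collagen hydroxylase, had the same order, with 4.50, 15.6 and 13.1 FPKM with ATV and 3.14, 9.75 and 9.34 with both, and differed from XY018 alone by −1.498, −1.23 and −1.25 on the log2 scale, but against ATV alone only CAV1 passed 1.5-fold (−0.68), while TGFB2 (−0.51) and P3H2 (−0.49) did not. CPA4, a secreted carboxypeptidase, was at 18.5, 14.3, 14.4 and 6.67 FPKM, an excess of −0.72 (−1.04 to −0.40), and FAM46B was at 7.04, 5.78, 4.82 and 2.29 FPKM. CLIC3, with about 18 fragments in the combined library, and FGFBP1, a carrier of fibroblast growth factors with about 11, were at 2.36 and 0.84 FPKM with both against 5.25 and 1.65 with XY018 alone. For FGFBP1 this difference of −0.90 (−2.19 to 0.15) spanned 0 and was −0.53, under 1.5-fold, with a pseudocount of 1. In the YAP and TAZ list CYR61 was the single gene called, of 10 expressed, and 0.854% of all genes were lower than both single treatments.

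The actin genes were the most deeply covered of these. ACTB was at 3399 FPKM with vehicle, 2980 with ATV, 2977 with XY018 and 1984 with both, and ACTG1 (chromosome 17 of GRCh37, 79476439 to 79490873) was at 659, 642, 581 and 399 FPKM. The 3 other libraries lay close together in each gene and the combined library stood below them. ACTG1 lay −0.69 (−0.73 to −0.65) from ATV alone, −0.54 (−0.59 to −0.50) from XY018 alone and −0.51 (−0.56 to −0.45) from the sum, so that against XY018 it fell just short of 1.5-fold. ACTB lay −0.59 from ATV alone and −0.59 from XY018 alone, just past 1.5-fold, with an excess of −0.40. TPM1, tropomyosin 1, was at 58.0, 49.2, 57.4 and 36.9 FPKM, and with −0.42 it fell short of 1.5-fold against ATV alone. Over the 16 expressed genes of the actin list the medians were −0.14, −0.15 and −0.15 in the 3 contrasts. Of these genes 2 were lower (2.7% of all genes) and 1 higher (2.8%) than ATV alone. Against XY018 alone 2 were lower (2.11%) and 1 higher (3.84%). Both actin genes have many processed pseudogenes, which could share reads with them.

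Genes with higher values in the combined library than in either single treatment follow. EGR1, an immediate early transcription factor, was at 3.24 FPKM with vehicle, 6.75 with ATV, 5.51 with XY018 and 15.4 with both. FOS, a subunit of AP-1, was at 9.82, 12.7, 13.9 and 24.6 FPKM. Each single compound gave an intermediate level and the combined library the highest. EGR1 and FOS were the 2 genes called in the list of 19 MAPK feedback and early response genes. Over all genes 0.779% were higher than both single treatments. The excess was 0.43 (−0.0046 to 0.86) for EGR1 and 0.44 (0.10 to 0.78) for FOS, so neither passed 1.5-fold over the sum. ORM1, an acute phase protein, was at 2.59, 2.16, 3.54 and 7.60 FPKM, CALCB, a calcitonin gene-related peptide, at 1.34, 1.60, 2 and 5.53, and PRSS1, a trypsinogen with close paralogs that make its value uncertain, at 2.48, 3.15, 2.48 and 5.78, each with 45 to 56 fragments in the combined library. PDK2, a kinase that restrains pyruvate dehydrogenase, was at 3.36, 3.34, 2.90 and 5.77 FPKM, an excess of 0.98 (0.45 to 1.5). FAM129A was at 3.92, 5.34, 5.20 and 9.32 FPKM, an excess of 0.39 (0.10 to 0.69).

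In the integrated stress response list, all 21 genes were expressed. Of these 6 were higher than ATV alone (2.8% of all genes), 2 were higher than XY018 alone (3.84%) and 0 were lower than either. The medians were 0.41 against ATV, 0.27 against XY018 and 0.06 for the excess. DDIT4, an inhibitor of mTORC1, was at 26.1 FPKM with vehicle, 27.3 with ATV, 35.1 with XY018 and 55.6 with both, an excess of 0.60 (0.35 to 0.84). NUPR1, a stress-induced chromatin protein, was at 71.1, 88.1, 84.9 and 144 FPKM, an excess of 0.46 (0.37 to 0.54). These were the 2 members higher than both single treatments. ASNS, asparagine synthetase, was at 64.5, 79.6, 98.3 and 135 FPKM, higher than ATV alone by 0.76 and than XY018 alone by 0.46. The endoplasmic reticulum chaperone list had 0 of 16 genes called in any contrast, which in a list of this size is near the shares over all genes. The excess farthest from 0 among members at 5 FPKM or above was that of MANF at −0.28 (−0.60 to 0.04).

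TNFRSF10D, a decoy receptor for the death ligand TRAIL, was at 2.16 FPKM with vehicle, 5.10 with ATV, 1.90 with XY018 and 7.79 with both, an excess of 0.78 (0.22 to 1.33). As in RHOB, the XY018 library was at the vehicle level and the combined library above ATV alone. In the apoptosis list of 24 expressed genes 3 were higher than ATV alone (2.8% of all genes). Against XY018 alone 3 were higher (3.84%) and 1 lower (2.11%), and the medians were 0.14, −0.01 and 0.14. ANGPTL4, an inhibitor of lipoprotein lipase, was at 4.38, 6.10, 13.6 and 22.0 FPKM, 1.83 above ATV alone and 0.69 above XY018 alone. HP, haptoglobin, was at 3.23, 3.82, 7.41 and 11.8 FPKM, and G0S2, an inhibitor of the lipase ATGL, at 2.53, 2.34, 4.68 and 6.71 FPKM, and for both the interval of the excess spanned 0. HBEGF, a ligand of EGFR, was at 10.2, 11.6, 21.6 and 29.6 FPKM.

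Several chemokines and keratins were lower with both compounds than with ATV alone. CXCL1 was at 96.2 FPKM with vehicle, 67.2 with ATV, 73.8 with XY018 and 36.9 with both, CXCL5 at 25.3, 19.4, 14.7 and 7.99, and CXCL6 at 5.68, 5.86, 3.90 and 1.99, all neutrophil chemokines of 1 gene cluster. The combined library was the lowest of the 4 in each. CXCL8, of the same cluster, was at 6.10, 5.30, 10.4 and 8.36 FPKM, higher than ATV alone by 0.65 (0.26 to 1.06). The excess was −0.48 for CXCL1, −0.49 (−0.80 to −0.18) for CXCL5 and −0.98 (−1.75 to −0.21) for CXCL6. The 17 expressed genes of the NF-κB and chemokine list lay on both sides, with a median excess of −0.01. Against ATV alone 3 were lower (2.7% of all genes) and 5 higher (2.8%). IL1B, a cytokine, was at 7.94, 5.55, 11.8 and 12.3 FPKM, an excess of 0.57 (0.06 to 1.08). In the keratin and junction list of 21 expressed genes 6 were lower than ATV alone (2.7% of all genes) and 1 was lower than XY018 alone (2.11%). KRT5 was at 660, 568, 408 and 315 FPKM and KRT17 at 379, 302, 232 and 166 FPKM, with an excess of −0.16 in each, while EPCAM, CDH1 and KRT18 were called in none of the contrasts. The interferon list of 19 expressed genes had 4 lower than ATV alone (2.7% of all genes) and 0 differing from XY018 alone. Below the sum were 2 (2.87% of all genes), led by IFIT3 with 14.2, 15.1, 14.9 and 10.1 FPKM.

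Proliferation genes were not called in HCC70. The lists of DNA replication (25 genes), mitosis (20), G1 regulators (12) and NRF2 (17) had 0 genes past 1.5-fold in any contrast there. Over all genes 2.11% to 3.84% were called per contrast and direction, so 0 in lists of this size is near that share. Smaller differences lay beyond counting error. In the mitosis list the interval lay below 0 for 13 of 20 genes against ATV alone and 14 against XY018 alone, with medians of −0.16 and −0.25, and the combined library was the lowest of the 4 for 16. The share of all genes with such an interval, or lowest in the combined library, was not counted, so these counts have no background here. Values against XY018 alone also moved with GC content, to a median of −0.11 in the lowest group described below. Single values included an excess of 0.31 (0.15 to 0.47) for CDT1, a replication licensing factor, −0.30 (−0.50 to −0.11) for BUB1B, a mitotic checkpoint kinase, and 0.46 (0.38 to 0.53) for AKR1C1, an aldo-keto reductase. The median excess of these lists was −0.01, −0.16, 0.03 and 0.10 in the order of the lists. In the other lists a few genes were called, against 2.7% of all genes lower and 2.8% higher than ATV alone. Against XY018 alone 2.11% of all genes were lower and 3.84% higher, so single calls in these short lists are near the background. Glycolysis and hypoxia had 1 gene lower and 4 higher than ATV alone and 2 lower than XY018 alone, of 24 expressed. Fatty acid oxidation and lipid droplets had 3 of 11 higher than ATV alone and 1 higher than XY018 alone, the acute phase and S100 list 3 of 16 and 1, and the clock list 2 of 16 and 0. The EGFR family and its ligands had 1 of 10 lower and 1 higher than ATV alone. Among members at 5 FPKM or above, the excess farthest from 0 was 0.52 for CDKN2D among the G1 regulators, −0.31 for PFKP in glycolysis, −0.52 for EPGN among EGFR ligands, −0.67 for KRT14 among the keratins, 0.55 for TEF among the clock genes and 0.78 for S100A4 among the acute phase and S100 genes.

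Values against XY018 alone moved with the GC content of the transcripts. Among genes at 5 FPKM or above, the median difference between the combined treatment and XY018 alone went from −0.11 in the lowest of 5 groups of equal size ordered by GC content (30.7% to 41.1%) to 0.20 in the highest (58.8% to 76.0%), and ATV alone against vehicle went from −0.11 to 0.16 over the same groups. The medians against ATV alone ran from −0.0097 to −0.030 and those of the excess from −0.0064 to 0.040 between the lowest and the highest group. Genes higher than XY018 alone had a median GC content of 58.9%, against 48.6% for all genes. The part of GC content in these values was not tested. With each contrast centred within 20 bins of GC content, chosen after the values were seen, 320 genes in place of 459 were higher than XY018 alone and 247 in place of 252 were lower. The GC-rich gene C9orf16, with 54.6, 115, 49.1 and 119 FPKM, went from 1.28 to 0.97, still past 1.5-fold, as were C6orf1 (3.92, 12.1, 6.18 and 14.5 FPKM) and SPRR2D (29.6, 49.7, 19.1 and 41.8 FPKM), which like C9orf16 were about as high with ATV alone, and RHOB, EGR1 and TNFRSF10D. ANGPTL4 went from 0.69 to 0.45, below 1.5-fold, and ACTG1 from −0.54 to −0.60, past it.

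**Figure D3:**
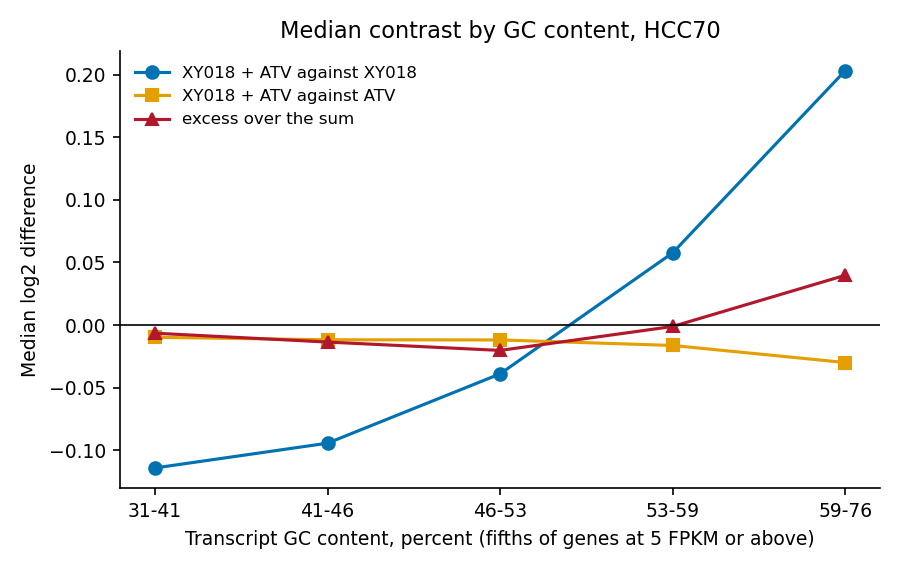
Median log2 difference in HCC70 (vertical axis) in 5 equal groups of the genes at 5 FPKM or above, ordered by transcript GC content in percent (horizontal axis), for the combined treatment against XY018, against ATV and for the excess. The line against XY018 climbs from −0.11 to 0.20, and the other lines stay between −0.030 and 0.040.

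Some of the largest values belong to entries that cannot be told apart from near-identical or overlapping genes. SMN2 was listed at 5.96, 0, 2.46 and 3.99 FPKM, and its sum with the near-identical SMN1 was 19.5, 19.0, 22.2 and 19.96 FPKM, an excess of −0.11. MTPN was listed at 0 except with XY018 alone (9.19 FPKM), and its sum with the overlapping LUZP6 had an excess of −0.07. NPIPA2 had an excess of −1.41, and its sum with NPIPA1 one of 0.37. The histone genes HIST1H2BJ (−1.41) and HIST2H2BF (1.23) have close copies too. RPP40 (5.40, 5.33, 6.54 and 2.89 FPKM), ASB3, CNIH2, OSGIN1, ZNF32 and IFI27L2 completed the genes farthest from the sum, with excess values of −1.13, −1.09, −1.04, 1.07, 1.06 and 0.95.

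In MDA-MB468 the same 3 contrasts gave 1333 genes lower (11.1% of 11995) and 1405 higher (11.7%) than ATV alone, 239 lower (1.99%) and 263 higher (2.19%) than XY018 alone, and 379 below (3.16%) and 328 above the sum (2.73%), while 193 were lower (1.61%) and 185 higher (1.54%) than both single treatments. The cholesterol list had a median of −0.57 against XY018 alone, where 9 genes were lower, and a median excess of −1.37, where 19 were below the sum, and 9 genes were lower than both single treatments. In HCC70 the corresponding counts were 0, 5 and 0. Lower than ATV alone in MDA-MB468 were 16 of 25 DNA replication genes and 4 of 20 mitosis genes, with 0 higher in either list. The DNA replication median was −0.77 against ATV alone and −0.11 against XY018 alone. In HCC70 0 genes of these lists were called. The excess lay lower in MDA-MB468 for HMGCS1 (−2.04, −2.14 to −1.94) and INSIG1 (−2.04, −2.21 to −1.86), with intervals that do not meet those of HCC70, whereas the intervals of HSD17B7 overlapped. SREBF1, higher with both compounds in HCC70, was lowest with both compounds in MDA-MB468, with 41.4, 28.9, 37.0 and 21.9 FPKM in the same order of libraries. RHOB was at 7.39, 8.59, 10.2 and 69 FPKM there and KLF2 at 0.91, 0.75, 1.18 and 8.12 FPKM, with excess values of 2.54 (2.29 to 2.79) and 2.93 (2.23 to 3.63), so both genes stood highest with the combined treatment in both lines. CASP14 was at 151, 113, 81.0 and 27.8 FPKM and CYR61 at 51.4, 35.8, 20 and 10.3 FPKM, again lowest with both compounds. Unlike in HCC70, XY018 alone differed from vehicle by −1.36 for CYR61, and its excess of −0.44 (−0.62 to −0.25) was under 1.5-fold. TNFRSF10D was at 1.63, 1.97, 1.57 and 1.88 FPKM and PDK2 at 11.4, 10.4, 12.1 and 11.1 FPKM, with no such order. The difference between the lines was not tested, and each line rests on 1 library per condition.

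**Figure D4:**
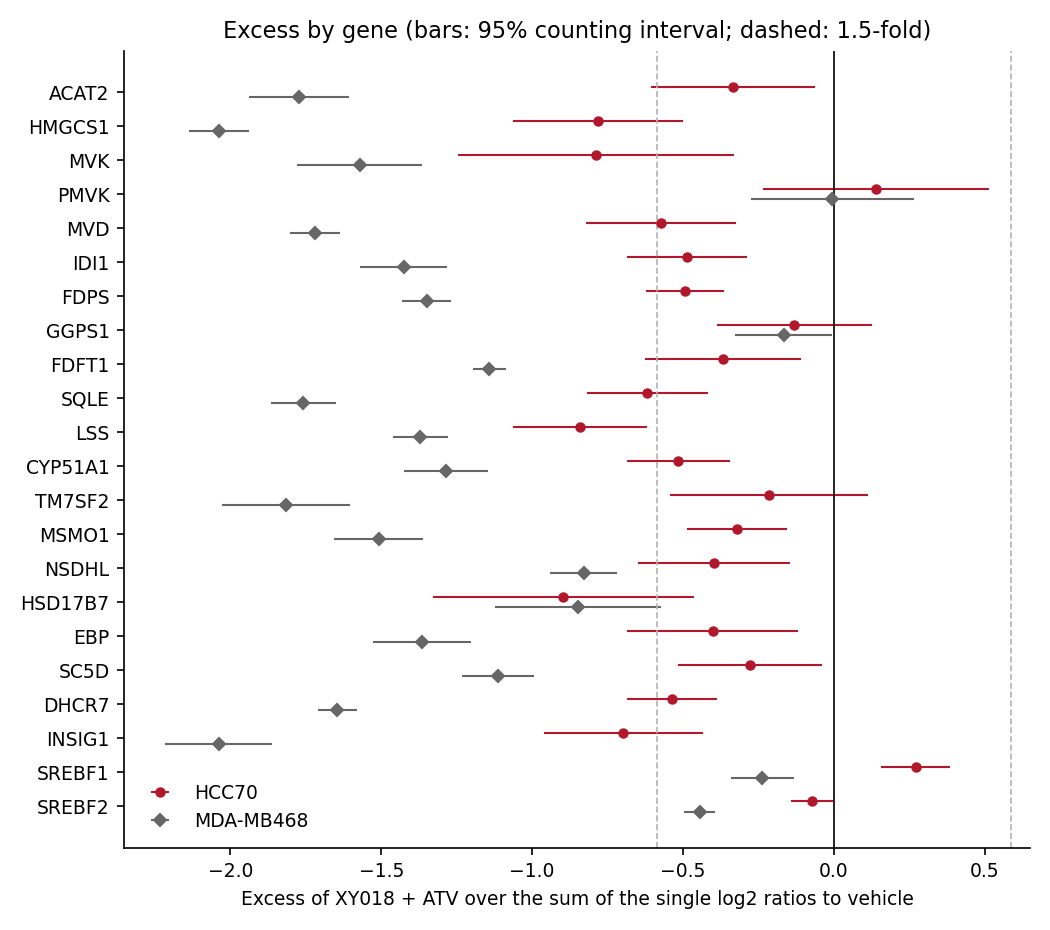
Excess of the combined treatment over the sum of the single log2 ratios to vehicle (horizontal axis) for 19 of the cholesterol genes and 3 genes of SREBP control (rows), in HCC70 (circles) and MDA-MB468 (diamonds), with 95% counting intervals as bars and 1.5-fold as dashed lines. Of the cholesterol genes shown 5 lie past 1.5-fold below 0 in HCC70 and 17 in MDA-MB468, and SREBF1 lies above 0 in HCC70 and below it in MDA-MB468.

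Overlap between the lines was counted over 11003 genes at 1 FPKM or above in both. Lower than both single treatments were 65 in HCC70, and 14 of these were so in MDA-MB468 too, 21.5% of the HCC70 genes against 1.12% of all genes compared, and 11.4% of the 123 in MDA-MB468. For genes higher than both, 11 were shared, 20.8% of the 53 in HCC70 against 1.3% of all, and 7.69% of the 143 in MDA-MB468. Below the sum 41 genes were shared, 16.5% of 249 against 2.42% of all, and 15.4% of 266. Above the sum 27 were shared, 9.68% of 279 against 2.22% of all, and 11.1% of 244. Opposite calls occurred too. Of the 249 genes below the sum in HCC70, 24 lay above it in MDA-MB468, against 2.22% of all genes compared. Of the 279 above the sum, 18 lay below it there, against 2.42% of all. Of the 65 genes lower than both, 4 were higher than both in MDA-MB468 (1.3% of all), and of the 53 higher, 1 was lower (1.12%). Against ATV alone 104 lower genes were shared (44.3% of 235 against 10.1% of all, and 9.39% of 1107) and 62 higher genes (27.9% of 222 against 10.7% of all, and 5.27% of 1176). Against XY018 alone 23 lower genes were shared (13.2% of 174 against 1.39% of all, and 15% of 153) and 36 higher genes (10.8% of 332 against 1.8% of all, and 18.2% of 198). Opposite calls against XY018 alone were 12 of the 174 lower genes (1.8% of all) and 9 of the 332 higher genes (1.39%). Against ATV alone they were 30 of the 235 lower genes (10.7% of all) and 21 of the 222 higher genes (10.1%).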

How the data were processed

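Per the labels and the study's methods, RNA was prepared with a TruSeq kit, reads were mapped to GRCh37 (hg19) with BWA and Bowtie, and genes were quantified with Cufflinks; versions are not given in the sources used here. The deposited values are FPKM that the authors normalized within each table; the headers name no unit. Files of read counts were not used here, so depth was estimated from the spacing of low FPKM values of genes with a single RefSeq transcript, with transcript lengths from GENCODE v44 mapped to GRCh37 (11867 of 11944 genes matched), and is approximate. A gene entered if any of the 4 libraries had it at 1 FPKM, and 0.1 was added before taking log2. Ratios carry exact Clopper-Pearson intervals from estimated fragments, and the excess a normal interval on the log scale, all at the 95% level and for counting error only. The intervals of the ratios leave out the 0.1 that the log2 values include. At low FPKM a value can therefore lie away from the middle of its interval or outside it. No test was run, since each condition has 1 library. A fixed rule named 104 genes: all members of the cholesterol, SREBP control and LXR lists, called prenylation genes, the 8 farthest genes per contrast and direction at 5 FPKM or above with an interval past 0 (readthrough genes passed over), the member with the largest excess of each other list, and ABCA1 in any case; some of these genes are not reported here, though counts and medians of lists include them. The members, the 24 lists and the rule were chosen with earlier results of these data known. The other 4 libraries (2.5 μM XY018 in each line, and GSK805 with its vehicle) were not used. The alternatives were pseudocounts of 1 and 0.01, no filter, a filter at 5 FPKM, rescaling to a median of 0, a 2-fold threshold and a linear sum, and, added after the values were seen, the counting interval and centring within GC bins. The 3 contrasts and their counting intervals were checked on simulated HCC70 libraries in which 200 genes had known changes. The simulation used the estimated depth, so it does not check that estimate, and the other steps were not simulated. The software was Python (version 3.11.15) with pandas (2.3.3), scipy (1.17.1), numpy (2.4.6) and, for plots, matplotlib (3.10.9).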

Additional observations from a re-analysis of the deposited data

Results flagged for a closer look

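A difference in direction between the cell lines drew attention to 4 of the named genes, each past 1.5-fold with a counting interval past 0 in both lines; the differences between the lines were not tested and each value rests on 1 library per condition. EGR1 was higher with both compounds than with ATV alone in HCC70 (1.17) and lower in MDA-MB468 (−1.33), and likewise against XY018 alone (1.46 and −0.71). IFIT3 lay below the sum of the single treatments in HCC70 (−0.65) and above it in MDA-MB468 (0.84). ASB3 lay −0.69 from ATV alone and −1.09 from the sum in HCC70, and 1.06 and 0.74 in MDA-MB468. SMN2 differed from XY018 alone by 0.68 in HCC70 and −3.46 in MDA-MB468, in an entry that cannot be told apart from SMN1 and is listed at 0 FPKM with both compounds in MDA-MB468, so that the second value depends on the pseudocount and is no measure of size.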

How the results depend on the processing

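The counts depend on how weak values are treated, and the order in which the counts are given is lower then higher against ATV, lower then higher against XY018, below then above the sum, and lower then higher than both. A pseudocount of 1 gave 162, 150, 99, 208, 157, 183, 35 and 29 genes. Without a filter there were 913, 930, 762, 1072, 1183, 1296, 297 and 397, and with a filter at 5 FPKM 115, 139, 72, 181, 70, 91, 26 and 25. A threshold of 2-fold gave 105, 81, 74, 78, 111, 109, 30 and 17. Requiring the counting interval past 0, chosen after the values were seen, left 158 below and 196 above the sum and 62 lower than both. A pseudocount of 0.01, rescaling the libraries and centring within GC bins kept every count within 1.5 times. Adding the single changes as FPKM gave a median excess of the cholesterol genes of −0.70 in place of −0.40 for HCC70 and −1.74 in place of −1.37 for MDA-MB468. Of 1907 values of named genes recomputed 40 left their counting interval, 16 of them with the linear sum, 13 with GC centring and 10 with a pseudocount of 1, and 0 called values changed direction. With a pseudocount of 1, THBD, FGFBP1 against XY018 alone and TNFRSF10D against ATV alone (0.53) fell under 1.5-fold, as did MYLIP (0.58), DDIT4 (0.58), TGFB2 (−0.51), FAM46B (−0.58) and G0S2 (0.52) in the excess, and STARD4 against ATV alone went from −1.62 to −0.84. No paired analysis was possible because each condition has 1 library. The depth limits what can be said of genes under about 5 FPKM, and no setting measures the variation between cultures.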
